A study of Drosophila melanogaster with 7 samples.

Results

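Transcription of 10 regulators of the embryonic cell cycle was examined at cycle 14, when the fast nuclear divisions of the Drosophila embryo stop and the zygotic genome becomes fully active. The genes were stg, twe, trbl, fzr, CycA, CycB, CycB3, CycE, dap and grp. They were chosen by symbol, and all 10 were found by identifier among the 17753 genes of both count tables. Gro-seq gave the level of nascent RNA: in isolated nuclei, polymerases already on a gene run on in the presence of biotinylated UTP, and the labelled RNA is purified and sequenced. Triple mutant (TM) embryos, n = 4 replicates, were compared with control (ctr) embryos, n = 3 replicates.

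TM embryos were laid by F1 flies homozygous for a Su(var)3-9 knockout, in whose female germline a maternal tubulin Gal4 driver on the 2nd chromosome expressed hairpins against G9a and dSetDB1 (egg). These 3 enzymes are the histone methyltransferases that place H3K9me2/3. The ctr embryos are labelled wild type, the study's control stock is a TRIP line, and the crosses of both groups carry the same code for a parent in the labels. The hairpins act during oogenesis, so the embryos lacked the maternal supply of dSetDB1 and G9a while their own copies of egg and G9a were intact. By the study's methods both parents of the F1 flies were homozygous for the Su(var)3-9 knockout, so the TM embryos carried it as well. All libraries were made from pools of whole embryos staged by hand to cycle 14, with no age within the cycle given.

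Entry into mitosis is set by Cdk1 bound to a mitotic cyclin, and Cdk1 is held inactive by phosphate groups that the Cdc25 phosphatases String (stg) and Twine (twe) remove. At the midblastula transition the maternal Twine protein is destroyed, and Tribbles (trbl) promotes the loss of Cdc25 proteins. The embryo then stays in the long interphase of cycle 14 until zygotic stg is transcribed in a spatial pattern that times the next mitosis. The remaining genes are the mitotic cyclins (CycA, CycB, CycB3), the S phase cyclin CycE, its inhibitor Dacapo (dap), the activator of cyclin destruction Fizzy-related (fzr), and the checkpoint kinase Grapes (grp), the fly Chk1, which slows the last syncytial cycles.

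The sequence around the annotated start of 6 of these genes is shown because fzr was lower in TM embryos, and because the other 5 varied between the TM libraries in opposite directions, as described later. The sequences of dap, which was also lower, and of twe, CycB3 and CycB, which varied likewise, are not shown. Each window runs from 250 bases before to 30 bases after the outermost RefSeq gene start in Release 6 (dm6), 5′ to 3′ on the strand of the gene. Capitals mark CAGGTAG (bound by the activator Zelda), ATCGATA (the core of the DNA replication-related element), TATAAA (the TATA box) and GAGAG (bound by GAGA factor), on either strand, with overlapping matches joined.
fzr (chrX:4679508-4679787, minus strand): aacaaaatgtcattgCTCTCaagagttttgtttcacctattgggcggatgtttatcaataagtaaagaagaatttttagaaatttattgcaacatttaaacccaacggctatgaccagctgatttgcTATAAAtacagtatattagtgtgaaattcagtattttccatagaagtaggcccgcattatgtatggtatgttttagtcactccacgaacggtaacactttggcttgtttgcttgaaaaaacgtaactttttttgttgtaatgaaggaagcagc
trbl (chr3L:20401580-20401859, minus strand): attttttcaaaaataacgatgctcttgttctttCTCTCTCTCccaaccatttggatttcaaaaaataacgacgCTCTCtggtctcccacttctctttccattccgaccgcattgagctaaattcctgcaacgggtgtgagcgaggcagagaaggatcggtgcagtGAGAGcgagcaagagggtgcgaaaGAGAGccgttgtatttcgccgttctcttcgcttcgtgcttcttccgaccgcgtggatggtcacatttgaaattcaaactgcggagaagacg
CycE (chr2L:15748121-15748400, minus strand): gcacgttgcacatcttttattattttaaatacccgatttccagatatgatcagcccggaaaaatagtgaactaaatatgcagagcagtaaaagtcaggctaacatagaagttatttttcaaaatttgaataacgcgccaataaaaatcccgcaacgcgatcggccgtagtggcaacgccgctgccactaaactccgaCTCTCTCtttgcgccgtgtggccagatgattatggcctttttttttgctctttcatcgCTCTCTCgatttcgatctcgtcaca
CycA (chr3L:11833549-11833828, minus strand): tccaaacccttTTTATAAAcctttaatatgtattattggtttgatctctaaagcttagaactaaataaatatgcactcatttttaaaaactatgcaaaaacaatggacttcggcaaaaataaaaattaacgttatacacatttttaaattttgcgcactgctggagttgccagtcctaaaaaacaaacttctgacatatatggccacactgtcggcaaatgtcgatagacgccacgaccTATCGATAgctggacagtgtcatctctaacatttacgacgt
stg (chr3R:29255771-29256050, minus strand): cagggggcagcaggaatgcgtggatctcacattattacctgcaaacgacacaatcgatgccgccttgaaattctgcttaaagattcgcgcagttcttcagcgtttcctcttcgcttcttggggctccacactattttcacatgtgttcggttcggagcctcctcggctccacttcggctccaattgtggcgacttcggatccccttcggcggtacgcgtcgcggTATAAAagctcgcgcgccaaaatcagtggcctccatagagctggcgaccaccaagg
grp (chr2L:16679804-16680083, plus strand): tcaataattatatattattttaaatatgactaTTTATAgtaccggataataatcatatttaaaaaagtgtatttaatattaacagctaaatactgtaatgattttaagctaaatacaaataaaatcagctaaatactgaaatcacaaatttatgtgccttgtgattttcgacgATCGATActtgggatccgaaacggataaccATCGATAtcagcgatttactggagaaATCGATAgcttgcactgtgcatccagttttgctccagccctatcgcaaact

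CAGGTAG was found in no window of the 10 genes and in 1.80% of the windows of 10797 genes tested for transcription. ATCGATA was found in 3 of the 10 windows (CycA, CycB and grp) and in 20.9% of all windows. In grp it stood 3 times, beginning at positions -77, -47 and -21 from the start. CycB had 2 matches counted over both strands, and the 2 matches in CycA were the overlapping strands of a single site. TATAAA was found in 5 of 10 windows and in 42.4% of all, and in stg it began at position -26. GAGAG was found in 5 of 10 windows (trbl, fzr, CycB3, CycE and dap) and in 29.1% of all, with 6 matches in trbl and 4 in CycE. These counts include overlapping matches, at positions -217, -215 and -213 in trbl and at -53 and -51 and at 6 and 8 in CycE. No gene with ATCGATA held GAGAG among the 10. A match to these letters is not a measured binding site.

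Gene-body counts totalled 18889493 to 22200059 per TM library and 19547254 to 21298129 per ctr library, and replicates differed by more than sampling noise (chi-square per degree of freedom of 25.4 to 199 between TM pairs and 20.9 to 26.1 between ctr pairs). Mitochondrial genes took 0.956% to 1.26% of the counts in TM and 0.662% to 0.956% in ctr libraries. The egg gene gave 36.3 ± 6.11 CPM in TM embryos and 33.3 ± 4.58 CPM in ctr embryos (SD, n = 4 and n = 3; log2 fold change 0.13, edgeR adjusted p = 0.729), and G9a differed by -0.02 (adjusted p = 0.930). CPM is the count per 1000000 counts of the library after TMM scaling. These nascent levels do not check the maternal knockdowns, which acted on RNA of the mother. Su(var)3-9 had 0 gene-body counts in all libraries because its whole length lies within eIF2gamma on the same strand, so its knockout could not be checked, and its exon counts differed by -0.20 on the log2 scale (adjusted p = 0.180). Of 7 genes of early cellularization, Sry-alpha and dunk had 0 gene-body counts in all libraries but 3176 to 26073 exon counts in TM and 3892 to 13747 in ctr libraries. The summed gene-body level of the other 5 was 8287, 5805, 5780 and 2875 CPM in TM replicates 1 to 4 and 4024, 3588 and 4693 CPM in ctr replicates 1 to 3. In this sum TM replicate 1 stood above and TM replicate 4 below all other libraries, and TM replicates 2 and 3 also exceeded every ctr library. The largest part came from slam, with means of 3270 CPM in TM and 2371 CPM in ctr. TM replicate 4 lay below the ctr libraries for slam and CG14427. For nullo, bnk and halo it lay within their range (4.05, 213 and 786 CPM against 2.77 to 10.1, 211 to 300 and 769 to 911 CPM). For 7 genes of late cycle 14 patterning the sum lay between 5291 and 6151 CPM in TM embryos and between 6981 and 7229 CPM in ctr embryos. The sums of 4 endoderm genes (1240 to 1365 CPM in TM against 1519 to 1604 CPM in ctr) and 6 genes of amnioserosa and dorsal ectoderm (1555 to 1886 CPM in TM against 2000 to 2073 CPM in ctr) did not overlap either. In sums chosen after seeing the data, the endoderm genes without srp overlapped (410 to 643 CPM in TM against 504 to 605 CPM in ctr), and so did the amnioserosa sums without ush (1116 to 1458 CPM in TM against 1338 to 1401 CPM in ctr), while the late patterning sums without opa did not (1838 to 2140 CPM in TM against 2325 to 2403 CPM in ctr). With ush left out, the amnioserosa sums of TM replicates 2, 3 and 4 (1166, 1292 and 1116 CPM) still lay below every ctr library. The mesoderm (1419 to 1542 CPM in TM against 1427 to 1498 CPM in ctr) and pole cell sums (365 to 431 CPM in TM against 382 to 408 CPM in ctr) overlapped.

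Of the 10917 genes whose counts averaged 10 or more per library, edgeR's quasi-likelihood test called 1183, or 10.8%, at an adjusted p below 0.05, of which 697 (6.38%) were lower and 486 (4.45%) higher in TM embryos. All 10 regulators passed the filter, and 2 of them, dap and fzr, were called, both lower in TM embryos. The median log2 fold change was -0.05 over the 10 regulators and 0.03 over all genes tested, with 3 regulators above and 7 below 0. The TM and ctr libraries did not overlap for the same 2 regulators, and did not overlap for 23.4% of all genes. Counts over exons alone, from the same libraries, called only dap among the 10, against 6.96% of the genes in that table. Since embryos were measured whole, fewer nuclei that transcribe a gene and less transcription per nucleus cannot be told apart.

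**Figure D1:**
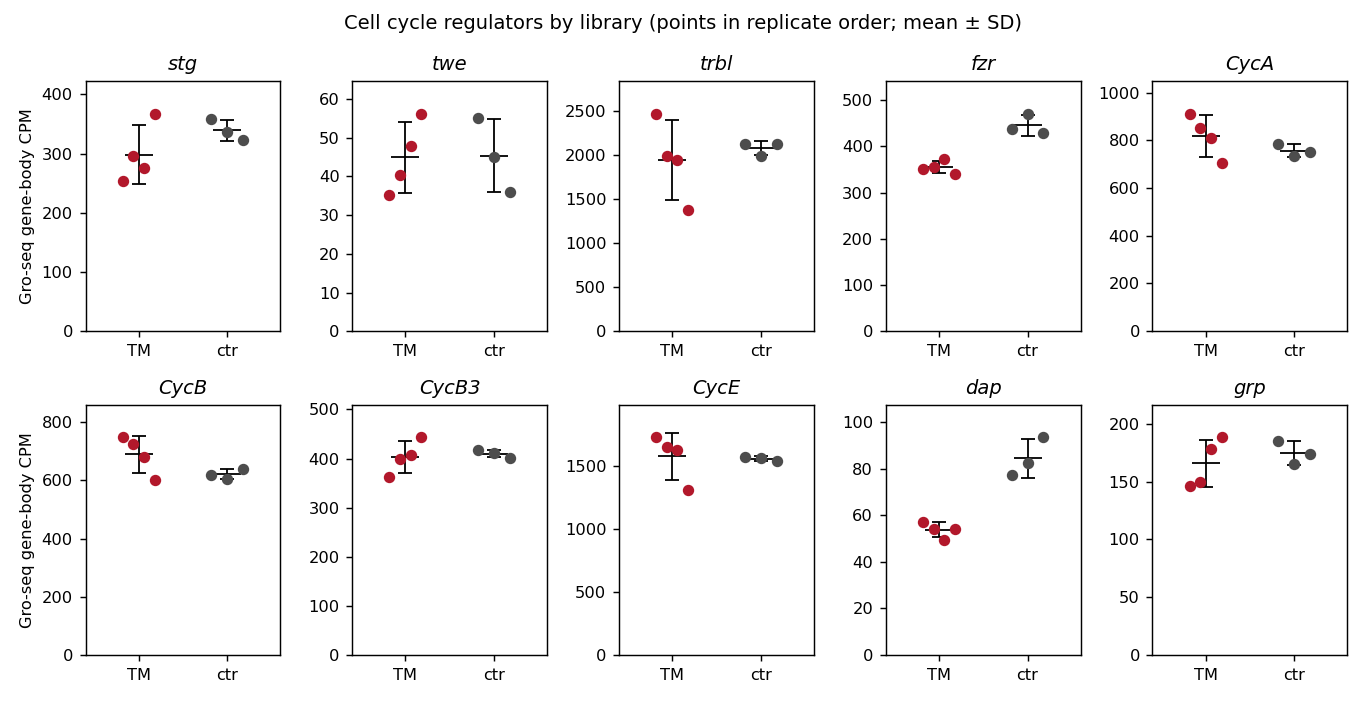
Gro-seq level of each regulator in CPM over the gene body (y axis, starting at 0 and scaled per gene), with TM libraries in red on the left and ctr libraries in grey on the right. Points are libraries in replicate order and bars are the mean with 1 SD; dap and fzr are the genes whose TM points all lie below the ctr points, and trbl ranges between 1368 and 2466 CPM within TM.

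The largest difference among the 10 was that of dap, which encodes the p21/p27-type inhibitor of CycE-Cdk2 that stops cells in G1 when proliferation ends. The gene lies at chr2R:9712321-9716256 on the plus strand and overlaps no other gene. It gave 57.3, 54.2, 49.5 and 54.2 CPM in TM replicates 1 to 4, against 77.5, 82.4 and 93.5 CPM in ctr replicates 1 to 3. Every TM library was below every ctr library, and the lowest ctr library exceeded the highest TM library by more than the SD of either group (53.8 ± 3.25 CPM in TM and 84.5 ± 8.22 CPM in ctr). The log2 fold change was -0.65 (SE 0.11), or 0.637-fold, with an adjusted p of 0.00132 (edgeR). Exon counts gave 27.3 to 32.2 CPM in TM embryos and 44.5 to 51.6 CPM in ctr embryos, a log2 fold change of -0.66 with an adjusted p of 0.00278. The call held without any single library, with log2 fold changes between -0.71 and -0.57. The late cycle 14 patterning sum, with or without opa, and the single genes srp and ush were also lower in TM, and their part in the levels of dap and fzr was not tested.

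CycE, which with Cdk2 drives S phase and is the target of Dacapo, was not called. Its gene (chr2L:15727581-15748150, minus strand) gave 1728, 1648, 1627 and 1307 CPM in TM replicates and 1576, 1568 and 1537 CPM in ctr replicates. TM replicate 4 was below and the other 3 TM replicates were above all ctr libraries. The log2 fold change was 0.02 (SE 0.095) with an adjusted p of 0.951, and -0.02 in exon counts.

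The second gene that fell was fzr, which encodes the Cdh1-type activator of the anaphase-promoting complex that marks mitotic cyclins for destruction in G1. The gene (chrX:4667290-4679537, minus strand) gave 351, 355, 372 and 340 CPM in TM replicates 1 to 4 and 437, 471 and 428 CPM in ctr replicates 1 to 3. The groups did not overlap, with means of 355 ± 13.05 CPM in TM and 445 ± 22.6 CPM in ctr. The log2 fold change was -0.33 (SE 0.078), or 0.797-fold, with an adjusted p of 0.0119. In exon counts the groups also did not overlap, at 82.5 to 91.5 CPM in TM embryos and 97.0 to 98.9 CPM in ctr embryos, but the difference was smaller (log2 fold change -0.18) and was not called (adjusted p = 0.222). Exon counts made up 39.3% of gene-body counts in TM and 34.9% in ctr for this gene, whose introns take up most of its length. The call was also lost without ctr replicate 2, with a log2 fold change of -0.29 and an adjusted p of 0.0924 (0.00432 to 0.0924 over the fits that left out 1 library).

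**Figure D2:**
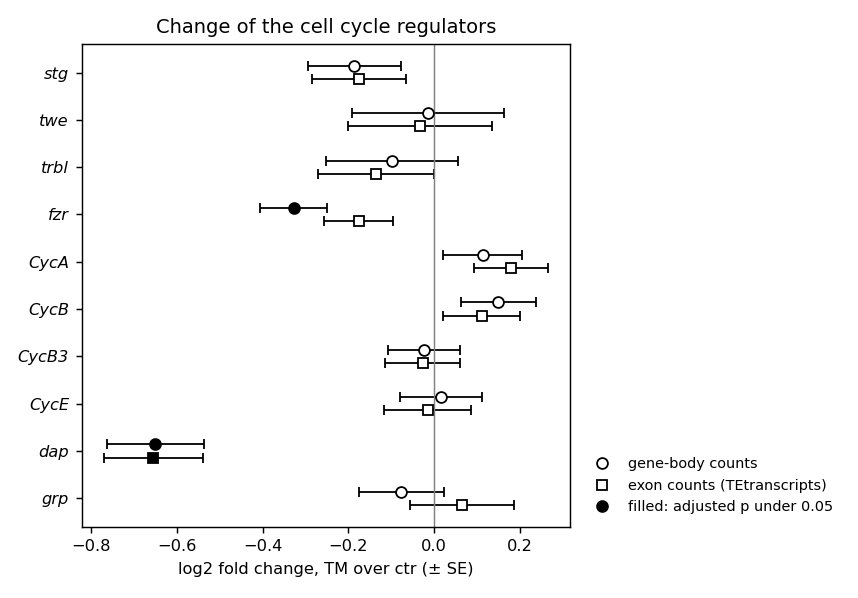
Log2 fold change of TM over ctr (x axis) with its standard error for each regulator, from gene-body counts (circles) and exon counts (squares), filled where the adjusted p was below 0.05. The gene dap is filled in both at about the same value, fzr in gene-body counts alone, and the 3 mitotic cyclins, CycE, stg, twe, trbl and grp lie within 0.2 of 0. Exon counts of CycA, CycE, twe and grp may hold reads of genes on the other strand.

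The Cdc25 gene stg (chr3R:29251826-29255800, minus strand) gave 253, 296, 276 and 368 CPM in TM replicates 1 to 4 and 359, 336 and 323 CPM in ctr replicates 1 to 3. TM replicates 1, 2 and 3 were below all ctr libraries, and TM replicate 4 was above all of them. With all libraries the log2 fold change was -0.19 (SE 0.11), and the difference was not called (adjusted p = 0.320). Without TM replicate 4 the log2 fold change was -0.30 with an adjusted p of 0.0115, while leaving out any other library gave adjusted p-values of up to 0.606. Without TM replicates 1 and 4, a choice made after seeing the data, it was -0.25 with an adjusted p of 0.0366.

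The maternal Cdc25 gene twe (chr2L:16259414-16261877, minus strand) gave the lowest mean CPM of the 10 regulators, with 35.3, 40.4, 47.9 and 56.2 CPM in TM replicates and 55.0, 45.1 and 36.0 CPM in ctr replicates. Both groups spanned nearly the same range, and the log2 fold change was -0.01 (SE 0.18; adjusted p = 0.976). Its SE was the widest of the 10 genes, so a difference of the size of fzr could not be told from 0 here. The gene trbl (chr3L:20396288-20401609, minus strand), whose product promotes the loss of both phosphatases, gave 2466, 1987, 1946 and 1368 CPM in TM replicates, against 2125, 1984 and 2123 CPM in ctr replicates. The TM libraries reached above and below the ctr libraries, with a log2 fold change of -0.10 (SE 0.15; adjusted p = 0.772).

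The mitotic cyclins, which activate Cdk1, were close to the control level. CycA (chr3L:11826719-11833578, minus strand) gave 911, 849, 809 and 704 CPM in TM replicates and 786, 735 and 750 CPM in ctr replicates, with a log2 fold change of 0.11 (SE 0.091; adjusted p = 0.504). TM replicates 1, 2 and 3 exceeded every ctr library. CycB (chr2R:22803521-22806948, minus strand) gave 748, 724, 682 and 602 CPM in TM replicates and 619, 605 and 639 CPM in ctr replicates, and again TM replicate 4 alone was below the ctr libraries. Its log2 fold change was 0.15 (SE 0.087; adjusted p = 0.321), and without TM replicate 4 it was 0.21 with an adjusted p of 0.0345, against up to 0.586 when another library was left out. CycB3 (chr3R:24867934-24870816, minus strand) gave 363, 398, 408 and 443 CPM in TM replicates and 417, 411 and 402 CPM in ctr replicates, with a log2 fold change of -0.02 (SE 0.084; adjusted p = 0.903). Exons of CG7264 lie on the other strand within CycA, and CG7264 had 2902 to 4237 exon counts in TM and 3006 to 3575 in ctr but at most 17 gene-body counts in any library. The exon table thus appears to hold reads of both strands, and the CycA values here are those of the gene body.

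The checkpoint kinase gene grp (chr2L:16680054-16699926, plus strand) gave 146, 150, 178 and 188 CPM in TM replicates and 185, 165 and 174 CPM in ctr replicates. The groups overlapped, with a log2 fold change of -0.08 (SE 0.10; adjusted p = 0.706) and 0.07 in exon counts. The genes squ and CG33552 and 4 miRNA genes, all on the same strand, share 13.9% of its length, and reads there were not assigned to any gene in the gene-body table. Genes on the other strand overlap 13.2% of the length of grp, 4.35% of CycE and 3.98% of twe. Exon counts of grp, CycE and twe may thus hold reads of those genes, as may those of CycA.

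The coefficient of variation was larger among TM than among ctr libraries for 7 of 10 regulators, the exceptions being twe, dap and fzr, and for 57.8% of all genes tested. For trbl it was 23.1% in TM and 3.88% in ctr, for stg 16.6% in TM and 5.37% in ctr, for CycE 11.8% in TM and 1.31% in ctr, and for CycA 10.6% in TM and 3.44% in ctr. The same pair of libraries stood at the ends: TM replicate 1 was highest and TM replicate 4 lowest for trbl, CycE, CycA and CycB, and the reverse held for stg, twe, CycB3 and grp. By chi-square per degree of freedom, this was also the most unlike TM pair (199, against 25.4 to 106 for the other TM pairs). The share of all genes with either order was not counted, so whether the pattern is particular to the regulators was not tested. For twe the coefficient was 20.3% in TM and 20.9% in ctr. The genes dap and fzr followed neither order, with coefficients of variation in TM of 6.04% and 3.68%, below their ctr values of 9.73% and 5.07%.

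**Figure D3:**
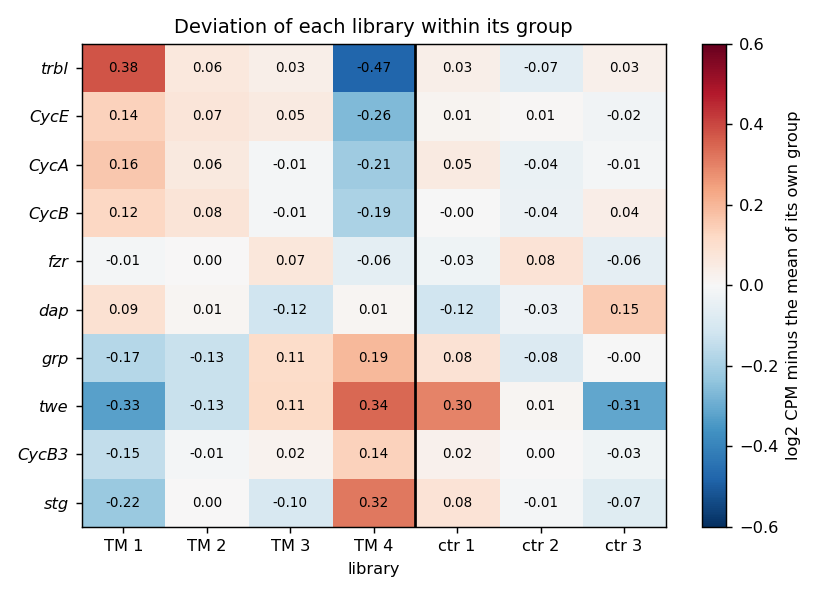
Log2 CPM of each regulator in each library minus the mean of its own group (colour and printed value), with the 4 TM libraries on the left of the black line and the 3 ctr libraries on the right. In TM replicates 1 and 4 trbl, CycE, CycA and CycB take the opposite sign of grp, twe, CycB3 and stg, and trbl spans 0.38 to -0.47, whereas most ctr values lie near 0 except those of twe.

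Over the deviations of the 7 libraries from their group means, Pearson's r was 0.97 between trbl and CycA, 0.96 between trbl and CycB and 0.95 between trbl and CycE. It was 0.92 between stg and CycB3 and -0.93 between stg and trbl. These values describe the libraries and carry no test, since each library adds the same sample, depth and scaling to every gene. The summed early cellularization genes had the order of trbl in TM embryos, highest in replicate 1 and lowest in replicate 4. The transcripts with the pattern most like stg over the 7 libraries were Glys (glycogen synthase), bbg and Dcps, with r of 0.99, 0.98 and 0.98. For bbg the values were 653, 751, 726 and 1056 CPM in TM replicates and 989, 906 and 927 CPM in ctr replicates, and the log2 fold change of -0.24 was not called (adjusted p = 0.304). The part of the early cellularization genes and of embryo age in the spread between TM libraries was not tested.

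Per kilobase of gene body, trbl had the highest level of the 10 regulators, at 365 ± 84.4 CPM per kb in TM and 390 ± 15.1 CPM per kb in ctr, above 99.1% of all genes tested in TM and 98.9% in ctr. The mean of CycB was 201 CPM per kb in TM and 181 in ctr, that of CycB3 was 140 in TM and 142 in ctr, and that of CycA was 119 in TM and 110 in ctr. Next came CycE (76.7 in TM and 75.8 in ctr) and stg (75.0 in TM and 85.3 in ctr), then fzr (29.0 in TM and 36.3 in ctr). At the low end, dap had 13.7 CPM per kb in TM and 21.5 in ctr, twe had 18.2 in TM and 18.4 in ctr, and grp had 8.34 in TM and 8.80 in ctr, against medians over all genes tested of 9.99 in TM and 10.3 in ctr. With its lower level dap ranked ninth in TM, behind twe, and eighth in ctr. Neighbours in this order did not differ beyond the range of their libraries for CycB3 and CycA, stg and CycE, and dap and twe in TM, and for dap and twe in ctr. The order was not the same in exon counts per kilobase of exons. There dap had rank 8 in both groups, ahead of twe, and CycE had rank 2 in both. By that measure grp lay above the medians of all genes tested, with 11.6 CPM per kb against 9.54 in TM and 11.1 against 9.76 in ctr.

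**Figure D4:**
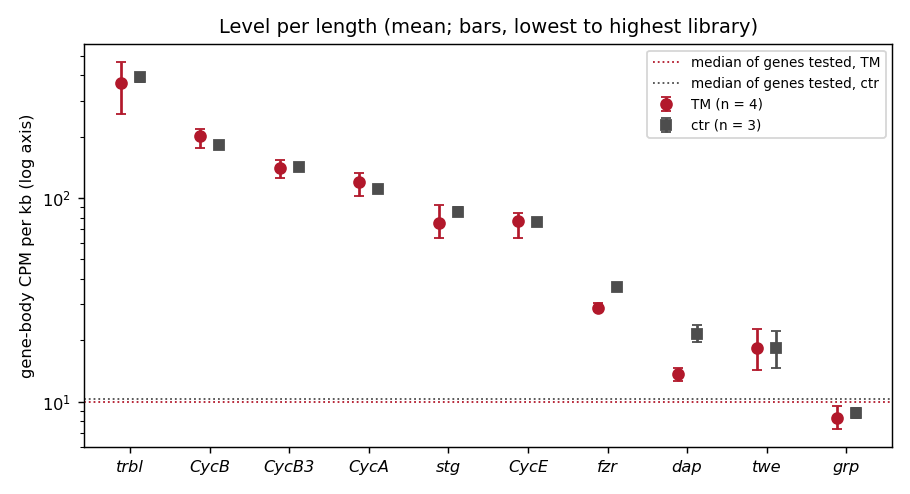
Gene-body level per kilobase (y axis, log scale) of the 10 regulators in the order of their ctr level, with TM in red on the left and ctr in grey on the right of each pair. Symbols are means and bars reach from the lowest to the highest library; dotted lines are the medians of all genes tested, 9.99 in TM and 10.3 in ctr, and grp is the only regulator below them in both groups.

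Genes of the same pathways were examined in lists chosen by role. In the list of G1/S and DNA replication genes, 4 of 31 tested were higher and 2 lower in TM embryos, with a median log2 fold change of 0.08, against 4.45% higher and 6.38% lower among all genes tested. Cdk4, the kinase partner of cyclin D that promotes growth and G1 progression, gave 37.9, 38.7, 41.5 and 50.7 CPM in TM replicates against 82.9, 81.8 and 81.3 CPM in ctr replicates. All TM libraries lay far below the ctr libraries, with a log2 fold change of -0.96 and an adjusted p of 0.00011, and the call held without any single library. Dp, the partner of the E2F factors, fell less (-0.25, adjusted p = 0.0474). Of the genes that rose, PCNA, the sliding clamp of DNA polymerases, gave 204, 204, 186 and 162 CPM in TM replicates and 131, 145 and 143 CPM in ctr replicates (log2 fold change 0.44, adjusted p = 0.00687). PolD1, the catalytic subunit of polymerase delta, was higher by 0.47 (adjusted p = 0.0319), Mcm5 of the replicative helicase by 0.30 (adjusted p = 0.0479) and PolA1 of polymerase alpha by 0.24 (adjusted p = 0.0483).

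Among 16 mitotic kinases and regulators of Cdk1, polo alone was called, against 10.8% of all genes tested. It was lower in TM embryos, with 145, 145, 138 and 157 CPM against 173, 178 and 183 CPM in ctr embryos (log2 fold change -0.28, adjusted p = 0.0361). Polo kinase acts in mitotic entry, spindle assembly and cytokinesis. The median of that list was 0.05, and Cdk1 itself differed by 0.03 (adjusted p = 0.875). Of 22 genes of the anaphase-promoting complex and the spindle checkpoint, to which fzr adds an activator, edgeR called 0 and DESeq2 called 1 (APC7), and 4 had an unadjusted p below 0.05 in edgeR, as did 23.98% of all genes tested: APC7 at a log2 fold change of 0.93, mad2 at 0.30, thr at 0.21 and vih at -0.26. The related activator fzy differed by -0.0017 (adjusted p = 0.994), a value that was not compared with that of fzr by a test. Of 12 genes of the DNA damage and replication checkpoint, to which grp belongs, 1 was called, against 10.8% of all genes tested. This was mus304, the fly ATRIP, lower in TM by a log2 fold change of -0.40 (edgeR adjusted p = 0.0461).

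The list of maternal translational control and RNA clearance, which acts on cyclin and twe RNA before and at the transition, had 2 of 10 genes lower in TM embryos, against 6.38% of all genes tested. Not1, the scaffold of the CCR4-NOT deadenylase, gave 102, 113, 121 and 116 CPM in TM replicates and 174, 177 and 163 CPM in ctr replicates (log2 fold change -0.60, adjusted p = 0.00029). The translational repressor gene pum differed by -0.37 (adjusted p = 0.0230). Of 10 apoptosis genes 1 was called, against 10.8% of all genes tested. This was skl, a gene of the reaper group, with 101, 92.8, 86.1 and 103 CPM in TM replicates and 158, 127 and 157 CPM in ctr replicates (log2 fold change -0.62, adjusted p = 0.00099), while rpr, hid and grim were not called. The groups did not overlap for Not1, pum and skl, nor for 23.4% of all genes tested.

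Of the 11 pathway genes called, 3 (Cdk4, Not1 and skl) kept the call in each of the 7 fits that left out 1 library. PCNA lost it without ctr replicate 1 (adjusted p = 0.0575). The other 7 lost it in 4 or more of those fits, polo, Dp, PolA1 and pum in 6 of 7, with adjusted p-values of up to 0.124 for polo, 0.176 for Dp, 0.181 for PolA1, 0.117 for pum, 0.189 for Mcm5, 0.118 for PolD1 and 0.164 for mus304.

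**Figure D5:**
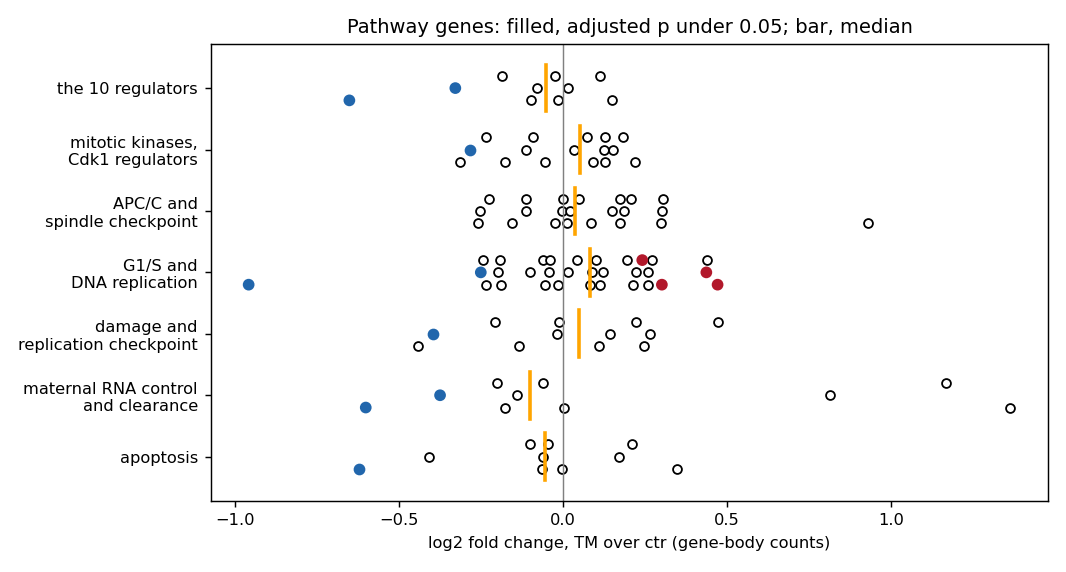
Log2 fold change of TM over ctr from gene-body counts (x axis) for the 10 regulators and the tested genes of 6 pathway lists (rows; vertical offsets only separate points). Filled points had an adjusted p below 0.05 (blue lower, red higher in TM), and orange bars are list medians; Cdk4 lies farthest to the left at -0.96, and the list medians lie between -0.10 and 0.08.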

How the data were processed

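Gro-seq libraries of cycle 14 embryos (4 TM, 3 ctr; groups from the sample labels; replicates are biological by the study's methods) were analysed. The authors deposited raw counts per gene: reads were trimmed with Cutadapt, aligned to dm6 by Bowtie2 2.3.3.1 (local alignment) and filtered at mapping quality 3, and featureCounts (Subread 1.5.3) counted sense reads from the start to the end of each gene. They also deposited expected counts from TEtranscripts, which count exons of genes together with repeats; its strand setting is not given in the sources used here. Neither table is normalized. Reads on gene stretches shared on the same strand were not assigned.

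Genes averaging 10 or more counts were tested with edgeR 4.0.16 in R 4.3.3 (TMM, robust quasi-likelihood, condition alone in the design), with Benjamini-Hochberg adjustment over all genes tested and a threshold of 0.05. Expected counts were used as whole numbers in the same test. The SE is the log2 fold change divided by the root of F. Alternatives were DESeq2 1.42.0 (the tool of the study) with and without shrunken fold changes, its size factors, library totals, a replicate block, 3 other filters (10 reads in all libraries together, a mean of 50, none), exon counts and leaving out each library. Depth was 18889493 to 22200059 gene-body counts and 29391697 to 35131766 counts in the TEtranscripts table per library. In a check of the test on simulated data of 10627 genes, 62.8% of 2-fold and 72.3% of 4-fold changes were recovered. Of 143 calls there, 7.69% were false, a share above the threshold of 0.05. Recovery is not given for smaller changes, such as those of dap and fzr. Replicate numbers were not used to pair the libraries in the main test, and whether they mark pairs was not settled.

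The regulators, pathway lists and marker lists were chosen with earlier results of these data known. The rule for named genes took all 10 regulators, the 3 targeted genes, called genes of each pathway list (up to 4 per direction), the 3 genes most like stg, and genes overlapping a regulator. Cdk1, fzy, APC7, mad2, thr, vih, rpr, hid, grim and the marker genes were named after their values were seen. Of the pathway lists, Orc1, nos and a repeated name of twin were not analysed. Sequences and gene starts are from RefSeq on Release 6, whose coordinates match the files.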

Additional observations from a re-analysis of the deposited data

How the results depend on the processing

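The direction and call of dap were the same under all alternatives run. With exon counts 1 regulator was called, and leaving out 1 library gave 1 to 4. The replicate block called 3 regulators (stg at -0.30, adjusted p = 0.0222, fzr and dap) and 1526 of all genes, but same-numbered libraries did not deviate together (r between -0.0177 and 0.00862). Replicate 4 exists in TM alone, so TM replicate 4 took no part in the difference fitted with the block. The log2 fold changes with the block were close to those without TM replicate 4, at -0.304 and -0.303 for stg and 0.0301 and 0.0371 for trbl. Leaving out 1 library gave 688 to 1667 calls over all genes. Library totals in place of TMM moved the share of higher calls to 55.8%, against 41.1%, and the median of all genes to 0.09.

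Uncalled regulators near 0 changed sign: trbl to 0.0301 with the block, twe to 0.0521 and CycB3 to 0.0393 with library totals, CycE to -0.015 and grp to 0.065 with exon counts. Leaving out 1 library gave -0.155 to 0.146 for twe (above 0 without TM replicate 1 or 2 or ctr replicate 1), -0.234 to 0.0371 for trbl (above 0 without TM replicate 4), -0.0736 to 0.0224 for CycB3 (above 0 without TM replicate 1) and -0.0312 to 0.0953 for CycE (below 0 without TM replicate 1 or 2). The cause was not tested.

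Calls in the pathway lists moved as follows. Mitotic kinases had 2 with the block and without TM replicates 1 and 4 (chosen after seeing the data), 0 with library totals and with exon counts, and 0 to 2 when 1 library was left out. The anaphase-promoting complex list had 1 with DESeq2 (shrunken or not), with a mean of 50 counts and without TM replicates 1 and 4, 2 with the block and with library totals, and 0 to 4 when 1 library was left out. G1/S and replication genes, 6 as reported, had 3 with the filter of 10 reads and 2 with exon counts but 7 with DESeq2 (shrunken or not), 8 with the block and 9 with library totals, and 1 to 10 when 1 library was left out. Checkpoint genes had 0 with DESeq2 (shrunken or not) and its size factors, 2 with the block and with the filters of 10 reads, a mean of 50 and none, and 0 to 2. RNA clearance genes had 1 with library totals and with exon counts, and 1 to 2. Apoptosis genes kept 1 throughout leaving out 1 library.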

Other observations

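Among the genes used to check stage and tissue, several differed between the groups. Of 6 pole cell genes, aub, a Piwi protein gene of the germline, gave 38.6, 38.1, 41.7 and 56.3 CPM in TM replicates and 23.6, 18.3 and 20.4 CPM in ctr replicates (log2 fold change 1.07, edgeR adjusted p = 0.0012), whereas tud was lower in TM (-0.31, adjusted p = 0.0429). Lower in TM were also srp, the GATA factor gene of endoderm and blood cells (-0.39, adjusted p = 0.00902), ush and Doc2 of the dorsal ectoderm (-0.51 and -0.48, adjusted p = 0.00917 and 0.0168), and opa, a late cycle 14 regulator (-0.31, adjusted p = 0.0261). These 4 calls were lost in exon counts, with log2 fold changes of -0.19 for srp (adjusted p = 0.288), -0.24 for ush (adjusted p = 0.251), -0.15 for Doc2 (adjusted p = 0.637) and -0.28 for opa (adjusted p = 0.079), while aub and tud kept theirs (0.66 and -0.34, adjusted p = 0.0167 and 0.0303). For ush, TM replicate 4 was nearest to ctr, with 428, 389, 462 and 600 CPM in TM replicates and 672, 677 and 662 CPM in ctr replicates. Of 5 mesoderm genes edgeR called 0 and 0 had an unadjusted p below 0.05. Of 6 later differentiation genes, listed as not expected at cycle 14, it called 0, and up had an unadjusted p of 0.00606. All 6 had a log2 fold change above 0. Their summed level did not overlap between the groups, at 471 to 534 CPM in TM against 460 to 470 CPM in ctr. Most of it came from elav, with means of 436 CPM in TM and 411 CPM in ctr.

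In the G1/S and replication list, 15 of 31 genes had an unadjusted p below 0.05, against 23.98% of all genes tested. Beside the 6 called, the log2 fold changes were 0.22 to 0.44 for Mcm3, Mcm7, dup, RnrL and Rif1 and -0.24 to -0.19 for E2f1, E2f2, RnrS and Cdc7, which did not pass the adjusted threshold. All of these genes were named after their values were seen.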
